A study of Rattus norvegicus with 4 samples.

Results

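Chemokines, their receptors and the colony-stimulating factors were followed in neonatal rat cardiomyocytes that overexpressed atrogin-1. The genes were taken from the gene table of the array's probe sets by their symbols, which had to open with Ccl, Cxcl, Ccr, Cxcr or Csf and a digit or with Cx3c, Xcl or Xcr, or to be Ackr3. This gave 49 of the 14217 genes on the array and 65 of its 31042 probe sets. They comprise 29 chemokine genes, 3 colony-stimulating factor genes and 17 receptor genes.

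The cells were primary cardiomyocytes from the ventricles of Sprague-Dawley rats 1 to 2 days old. One group had received an adenovirus with GFP (Ad-GFP) and the other an adenovirus with atrogin-1 and GFP (Ad-atrogin-1), so every culture carried a virus and GFP. All were kept without serum for 24 hours after infection, and each group had 2 arrays, which the labels call biological replicates. Signals are log2 values from robust multi-array average (RMA), the arrays' medians lay between 5.51 and 5.52 and their lower quartiles between 3.88 and 3.94. Below the lower quartile the size of a difference is not exact, since no background level was estimated. A gene is represented by its probe set of highest mean signal. It is called higher or lower where limma gave an adjusted p under 0.05 over all genes and the groups differed at least 2-fold. With so few arrays the precision of each value is limited. Array values are given in the order replicate 1, replicate 2, as log2 signals, and every difference is Ad-atrogin-1 minus Ad-GFP on the log2 scale with the standard error of the limma fit.

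Chemokines are small secreted proteins that guide white blood cells along a gradient, and most of their receptors couple to inhibitory G proteins. CXC chemokines with an ELR motif act on Cxcr2 and draw neutrophils, the interferon-induced CXC chemokines act on Cxcr3, and most CC chemokines draw monocytes, dendritic cells or lymphocytes. Colony-stimulating factors keep granulocytes and macrophages alive and drive their formation. In the injured heart such factors come from muscle cells, fibroblasts, endothelial cells and resident macrophages, and NF-kappaB is among the transcription factors known to switch many of them on.

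The promoters of the genes with the lowest ratios are shown first, because Ccl20 and 3 neutrophil attractants hold a match to the NF-kappaB binding consensus (the kappaB consensus) close to their starts. RefSeq's table (GRCr8 build) gave a promoter for 37 of the 49 genes, and not for Ccl2, Ccl3, Ccl4, Ccl5, Ccl11, Ccr4, Ccr10, Csf1, Csf2rb, Csf3, Cxcl3 and Cxcr5. The 250 bases before the start were searched on both strands. Each line gives the last 150 bases before the annotated start of the gene, 5′ to 3′ on the gene's strand, with the kappaB match of either strand in capitals. Ccl20 lies on chromosome 9 (chr9:91837009-91837158, plus strand), and Csf2 on chromosome 10 (chr10:38889674-38889823, minus strand). Cxcl1 (chr14:17479322-17479471), Cxcl2 (chr14:17467256-17467405) and Cxcl6 (chr14:17596418-17596567) lie on the minus strand of chromosome 14, where RefSeq lists Cxcl2, Cxcl1, Cxcl3 and Cxcl6 in a single cluster that also holds Pf4 and Ppbp. Cxcl10 (chr14:15988916-15989065, plus strand) is on the same chromosome and is shown as a gene with a match whose arrays overlapped between the groups. Csf2 is shown as the gene of lowest ratio, with no full match in the window. The search counts full matches only, so ggtagttccc in Csf2, close to the consensus on the other strand, was not counted.
Ccl20: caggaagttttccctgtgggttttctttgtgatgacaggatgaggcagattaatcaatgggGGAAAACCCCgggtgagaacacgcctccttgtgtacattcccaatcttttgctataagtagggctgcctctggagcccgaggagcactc
Cxcl1: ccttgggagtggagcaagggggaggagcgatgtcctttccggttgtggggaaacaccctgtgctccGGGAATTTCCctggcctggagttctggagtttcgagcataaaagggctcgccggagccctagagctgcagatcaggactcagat
Cxcl2: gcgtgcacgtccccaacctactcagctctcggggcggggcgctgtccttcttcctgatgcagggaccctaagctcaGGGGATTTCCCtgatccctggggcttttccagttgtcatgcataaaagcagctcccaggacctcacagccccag
Cxcl6: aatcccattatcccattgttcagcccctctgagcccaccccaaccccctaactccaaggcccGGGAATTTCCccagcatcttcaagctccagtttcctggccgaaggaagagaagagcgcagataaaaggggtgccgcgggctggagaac
Csf2: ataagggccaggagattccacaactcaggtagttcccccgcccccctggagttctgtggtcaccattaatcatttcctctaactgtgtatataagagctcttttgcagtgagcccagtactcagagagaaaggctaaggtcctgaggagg
Cxcl10: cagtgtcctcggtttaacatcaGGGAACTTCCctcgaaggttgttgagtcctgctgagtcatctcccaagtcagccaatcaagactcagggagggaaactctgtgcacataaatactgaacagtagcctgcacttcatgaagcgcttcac

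A kappaB match was found 89 to 80 bases before the start of Ccl20, 84 to 75 bases before Cxcl1 and 88 to 79 bases before Cxcl6. Cxcl2 had 2 overlapping matches between 74 and 64 bases before its start. Of the 7 genes at least 2-fold lower with Ad-atrogin-1, 5 had a promoter sequence and 4 of these held a match. These 5 were picked by their ratios in these data, and Cxcl1, Cxcl2 and Cxcl6 lie in the same cluster. The shares were therefore not tested against each other. Of the other 32 genes with a promoter, 5 held one (15.6%), namely Ccl7, Cxcl10, Ccr3, Ccl9 and Csf2ra, and over all 33469 promoters of the table the share was 4.24%. TGANTCA, the AP-1 motif, was in none of the 5 and in 5 of the 37 promoters (13.5%; 6.34% of all promoters), those of Ccl7, Cxcl10, Ccr3, Cxcl11 and Cxcl14. GAAANNGAAA, the core of the interferon response element, was in 2 of the 37 (5.41%; 3.41% of all), those of Cxcl10 and Ccl19. These matches are letters in a window, binding was not measured, and their part in the ratios was not tested.

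Of the 49 genes, Ccl20 fell in Ad-atrogin-1 cardiomyocytes and no gene rose. One gene called lower is 2.04% of the 49, against 0.0563% of all genes (8 of 14217), and 0.457% of all genes were called higher. At an unadjusted p under 0.05 in the same limma fit, 12 of the 49 (24.5%) were lower and 0 higher, against 6.52% and 6.83% of all genes. At least 2-fold lower, with no test, were 7 of the 49 (14.3%) and at least 2-fold higher 0, against 0.387% and 0.823% of all genes. The 7 were Csf2, Ccl20, Csf3, Cxcl2, Cxcl1, Cxcl3 and Cxcl6, which are 5 chemokines and 2 colony-stimulating factors. Without Ad-GFP replicate 2 only 2 genes were at least 2-fold lower, without Ad-atrogin-1 replicate 2 there were 4, leaving out Ad-GFP replicate 1 gave 8, and leaving out Ad-atrogin-1 replicate 1 gave 10. On both Ad-atrogin-1 arrays 19 of the 49 (38.8%) lay below both Ad-GFP arrays and 0 above them, against 22.3% and 20.7% of all genes. With 1 array less, a weaker criterion, 30 genes lay below when Ad-GFP replicate 1 was left out, and 34 lay below when Ad-atrogin-1 replicate 1 was. Leaving out Ad-GFP replicate 2 or Ad-atrogin-1 replicate 2 gave fewer. The shares of all genes with 1 array less were not counted. The median difference of the 49 was -0.17, that of all genes -0.0028, and that of the 42 less than 2-fold lower was -0.11. The methods do not name their test of group means, so an equal-variance t-test was run, which need not be the paper's own. After adjustment it called none of the 49 in either direction (adjusted p of Ccl20 = 0.483). The share of all genes that it called was not counted.

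**Figure D1:**
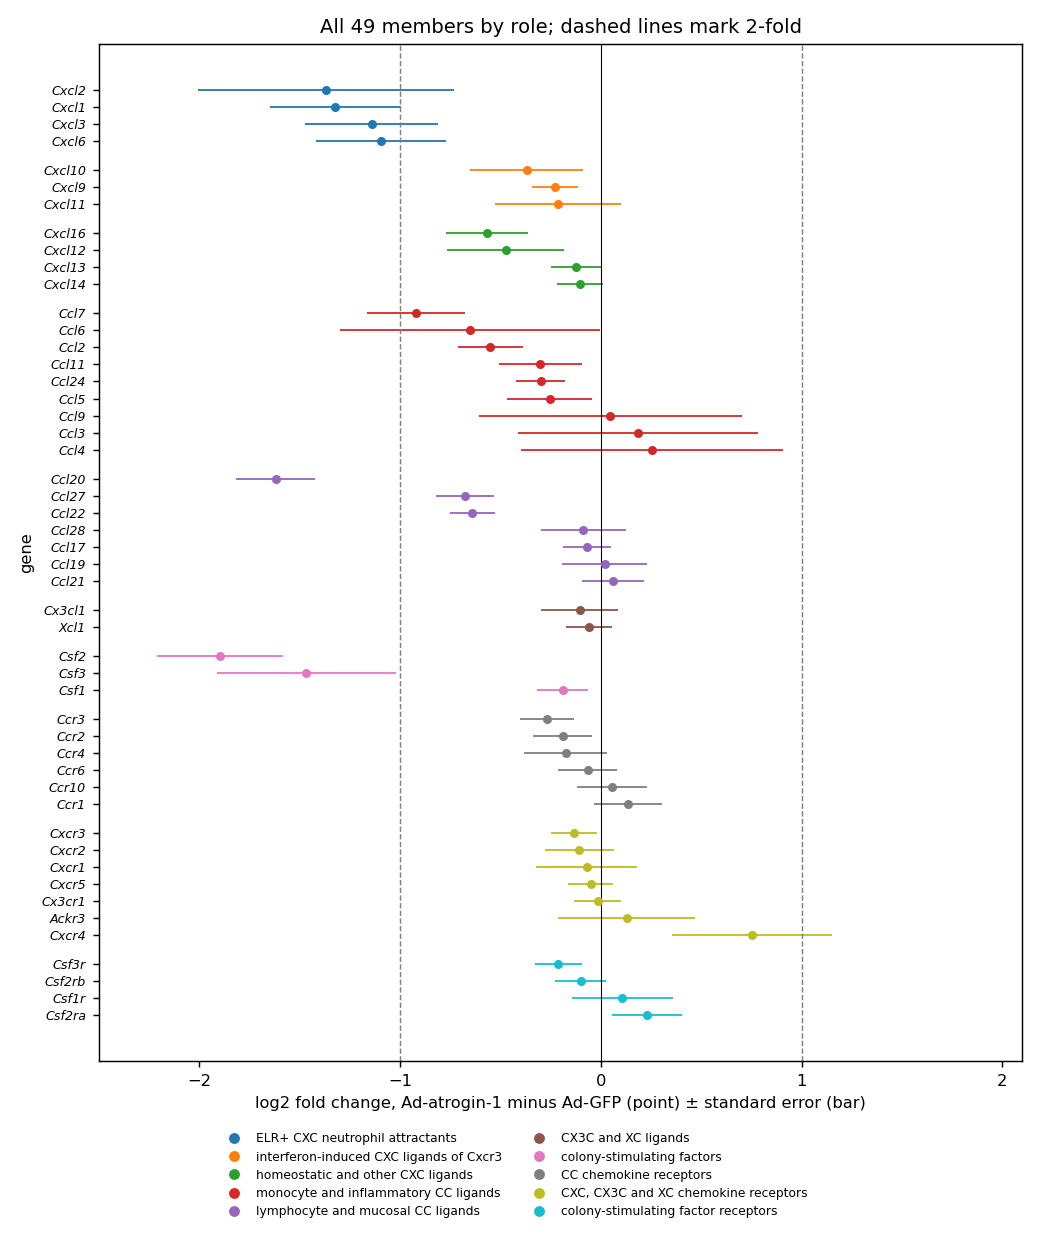
The log2 difference between Ad-atrogin-1 and Ad-GFP cardiomyocytes on the x axis is shown for each of the 49 genes, grouped and coloured by role, with bars of 1 standard error of the limma fit and dashed lines at 2-fold. The points left of the lower dashed line are the 4 ELR+ CXC chemokines, Ccl20, Csf2 and Csf3, and no receptor lies there.

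The 32 ligands and factors and the 17 receptors are set side by side by their counts alone. Among the ligands and factors 12 had an unadjusted p under 0.05 with a lower signal, 7 were at least 2-fold lower and the median difference was -0.30. Among the receptors 0 had such a p, 0 were 2-fold lower and the median was -0.07. Of all genes 6.52% were lower at an unadjusted p under 0.05 in limma, and 0.387% were at least 2-fold lower. For 17 receptors a count of 0 is near these shares. Of the receptors, 8 lay under the lower quartile on all 4 arrays, where a difference could hardly be seen, as against 2 of the ligands and factors.

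The ELR+ CXC chemokines Cxcl1, Cxcl2, Cxcl3 and Cxcl6, all neutrophil attractants, were each at least 2-fold lower with Ad-atrogin-1, with a median difference of -1.23. None passed the test after adjustment. Before it 3 of the 4 did, and 6.52% of all genes were lower at an unadjusted p under 0.05 in limma. Without Ad-GFP replicate 2 none was 2-fold lower, the differences being -0.88 for Cxcl1, -0.68 for Cxcl2, -0.88 for Cxcl3 and -0.61 for Cxcl6. Cxcl1 had signals of 11.18 and 12.05 in Ad-GFP and 10.56 and 10.03 in Ad-atrogin-1 cardiomyocytes, a difference of -1.32 (standard error 0.32, 2.50-fold, adjusted p = 0.192, limma). Cxcl6, which RefSeq also lists as Cxcl5, had 8.08 and 9.04 against 7.64 and 7.29 (-1.09, standard error 0.33, 2.14-fold, adjusted p = 0.252, limma). Cxcl3 had 9.76 and 10.29 against 9.34 and 8.43 (-1.14, standard error 0.33, 2.21-fold, adjusted p = 0.245, limma). In these 3 genes the groups did not overlap, and 22.3% of all genes likewise lay lower on both Ad-atrogin-1 arrays. Cxcl2 had 8.63 and 10.01 against 8.75 and 7.15 (-1.37, standard error 0.64, 2.58-fold, adjusted p = 0.443, limma), and its groups overlapped, because Ad-atrogin-1 replicate 1 was above Ad-GFP replicate 1. For Cxcl3 another 2 probe sets of clear signal differed by -1.08 and -0.89, while 2 under the lower quartile on all arrays differed by 0.10 and 0.03, and the mean of all its probe sets differed by -0.59. The 3 of these genes with a promoter sequence, Cxcl1, Cxcl2 and Cxcl6, are the chromosome 14 genes printed above with a kappaB match.

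Ccl20, which attracts lymphocytes and dendritic cells that bear Ccr6, was the gene that passed. Its signals were 10.37 and 10.64 in Ad-GFP and 9.12 and 8.65 in Ad-atrogin-1 cardiomyocytes, with a gap of 1.25 between the nearest arrays of the 2 groups. It was 3.07-fold lower (difference -1.62, standard error 0.20, adjusted p = 0.0466 over genes, limma). Adjusted over all probe sets its p was 0.0616 in limma, so none of the 65 probe sets was called. Of all probe sets 0.0258% were called lower and 0.248% higher. At an unadjusted p under 0.05, 15 of the 65 (23.1%) were lower and 0 higher, against 5.61% and 5.6% of all probe sets. With any of the 4 arrays left out the adjusted p of Ccl20 was between 0.386 and 0.449 and the difference between -1.85 and -1.38. Ccr6, its receptor, had signals of 3.40 and 3.50 against 3.54 and 3.23, under the lower quartile on all arrays.

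**Figure D2:**
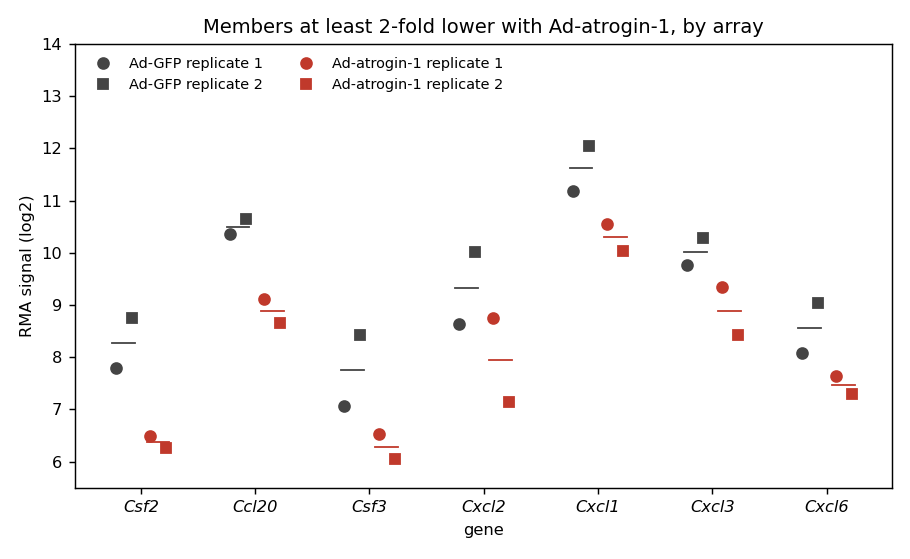
The RMA signal (log2) is shown on the y axis for each of the 7 genes at least 2-fold lower, with grey points for Ad-GFP and red points for Ad-atrogin-1 arrays, circles for replicate 1, squares for replicate 2 and bars for group means. In every gene the Ad-GFP square is above the Ad-GFP circle and the Ad-atrogin-1 square is below the Ad-atrogin-1 circle, and Cxcl2 alone overlaps between the groups.

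Of the 3 colony-stimulating factors, those of granulocytes were the lower ones. Csf2, the granulocyte-macrophage factor, had signals of 7.79 and 8.75 in Ad-GFP and 6.49 and 6.25 in Ad-atrogin-1 cardiomyocytes (-1.90, standard error 0.31, 3.72-fold, adjusted p = 0.0827, limma), the largest difference of the 49 with all arrays and the brightest probe sets. Without Ad-GFP replicate 2 it was -1.42, against -1.48 for Ccl20. The groups did not overlap, and the gap between their nearest arrays was 1.30. Another probe set of Csf2 lay under the lower quartile on all arrays and differed by -0.10, which put the mean of both at -0.9998. Csf3, the granulocyte factor, had 7.06 and 8.44 against 6.52 and 6.04 (-1.47, standard error 0.45, 2.76-fold, adjusted p = 0.264, limma). The groups did not overlap, but the Ad-GFP arrays of Csf3 were 1.37 apart on the log2 scale and the nearest arrays of the groups only 0.54. Csf1, the macrophage factor, had 8.98 and 9.18 against 8.86 and 8.92 (-0.19, standard error 0.13, adjusted p = 0.592, limma), and its other 3 probe sets differed by -0.13, -0.24 and -0.44. The groups of all 3 genes were separate, with Ad-atrogin-1 the lower, as were 22.3% of all genes. For Csf1 the nearest arrays of the groups were only 0.058 apart.

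The other CC chemokines of lymphocytes and mucosal tissue held 2 more genes with little spread within groups. Ccl22, a ligand of Ccr4, had signals of 6.024 and 5.996 against 5.36 and 5.38 (-0.64, standard error 0.11, 1.56-fold, adjusted p = 0.0944, limma), and its other probe set differed by -0.50. Ccl27, a ligand of Ccr10, had 6.42 and 6.57 against 5.95 and 5.69 (-0.67, standard error 0.14, 1.60-fold, adjusted p = 0.144, limma). In both genes the groups were separate and the arrays of each group were close, but neither was called, and they are described here after their values were seen. Ccl19, a ligand of Ccr7, had 6.87 and 7.37 against 7.32 and 6.96, with a difference of 0.02. Ccl17, Ccl21 and Ccl28 differed by between -0.09 and 0.06, and their groups overlapped.

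The 9 monocyte and inflammatory CC chemokines showed 2 patterns. Ccl2, the chief monocyte attractant, had signals of 12.62 and 12.96 against 12.33 and 12.14 (-0.55, standard error 0.16, 1.46-fold, adjusted p = 0.248, limma). Ccl7, which acts on the same receptor, Ccr2, had 11.10 and 11.41 against 10.67 and 10.00 (-0.92, standard error 0.25, 1.89-fold, adjusted p = 0.220, limma). Neither overlapped between the groups, and both had an unadjusted p under 0.05, as had Ccl24 (-0.30), which lay under the lower quartile on all arrays. Ccl5 and Ccl11 differed by -0.25 and -0.30 with overlapping groups. The remaining 4 genes differed more between the arrays of a group than between the groups.

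Ccl3 and Ccl4, which draw monocytes and lymphocytes, and Ccl6 and Ccl9, rodent ligands of Ccr1, were high on Ad-atrogin-1 replicate 1 and low on replicate 2. They were singled out for this after their values were seen. Ccl3 had signals of 7.77 and 8.48 in Ad-GFP and 9.23 and 7.38 in Ad-atrogin-1 cardiomyocytes. Ccl4 had 7.05 and 7.60 against 8.62 and 6.54. Ccl6 had 6.68 and 7.22 against 7.33 and 5.26, and Ccl9 had 6.12 and 6.67 against 7.49 and 5.39. The 2 Ad-atrogin-1 arrays were thus 3.59-fold apart for Ccl3, 4.24-fold for Ccl4, 4.20-fold for Ccl6 and 4.28-fold for Ccl9, while the groups differed by 0.18, 0.25, -0.65 and 0.05 on the log2 scale. In all 4 the highest and the lowest array of the 4 were the Ad-atrogin-1 arrays.

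Some macrophage markers differed between the same arrays. The 18 measured macrophage and leukocyte markers had a mean signal of 4.66 and 4.75 on the Ad-GFP arrays and of 4.95 and 4.47 on the Ad-atrogin-1 arrays. Of these, 13 were higher on Ad-atrogin-1 replicate 1 than on replicate 2, and none was called. Tyrobp, Laptm5, S100a9 and Cd3e, 4 of the 18, were higher on replicate 2, as were 48.9% of all genes. Ptprc, Itgam, C1qb and Aif1 differed little, by -0.24, -0.16, -0.11 and -0.17 (replicate 2 minus replicate 1). Another 3 (Cd163, Mrc1 and S100a8) lay under the lower quartile on all 4 arrays. Adgre1 and Cd74 differed most between the groups, by 0.36 and 0.29. Adgre1, a macrophage surface receptor, had signals of 4.09 and 5.04 against 6.19 and 3.67. Cd68 had 6.03 and 6.15 against 6.62 and 5.08, and Cd14 had 6.35 and 6.77 against 7.40 and 5.58. Cd68, Cd14 and Fcer1g, which is plotted with them, were chosen after their values were seen, as were Il1b (6.77 and 7.69 against 8.72 and 6.48) and the platelet chemokine gene Pf4 (7.66 and 7.86 against 8.73 and 6.14), which had the same order of the Ad-atrogin-1 arrays. Macrophage markers were not alone in this order. All 11 cardiomyocyte markers were higher on Ad-atrogin-1 replicate 1 than on replicate 2, with means of 11.90 and 11.51. So were 5 of 10 fibroblast, 4 of 7 mesothelial and epithelial and 3 of 7 smooth muscle markers, but 0 of 8 endothelial markers. The part of macrophages or other cells in these values was not tested. In RNA from a whole culture fewer cells of a type and less RNA per cell cannot be told apart.

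**Figure D3:**
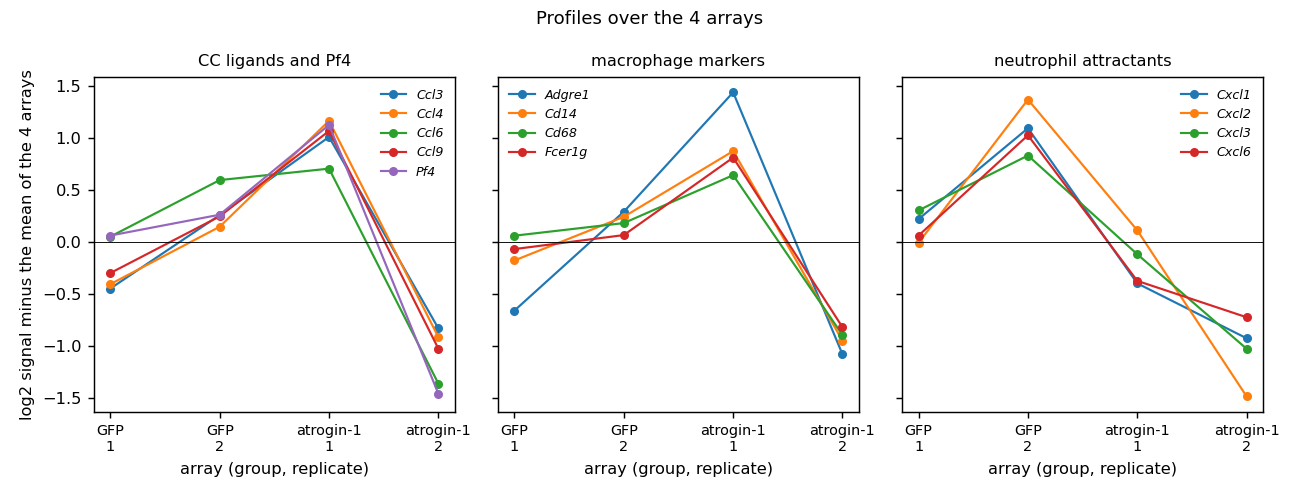
The log2 signal of a gene minus its mean over the 4 arrays is shown on the y axis for each array on the x axis, with CC chemokines and Pf4 on the left, macrophage markers in the middle and ELR+ CXC chemokines on the right; lines only join the points of a gene. The 5 chemokines on the left and the 4 markers, picked after their values were seen from 18 that do not all have this shape, are highest on Ad-atrogin-1 replicate 1 and lowest on replicate 2, while Cxcl1, Cxcl2, Cxcl3 and Cxcl6 are highest on Ad-GFP replicate 2 and lowest on Ad-atrogin-1 replicate 2.

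The arrays of a group were also compared with each other, as a description with no test. At least 2-fold apart between the Ad-atrogin-1 arrays were 6 of the 49 (12.2%, against 0.633% of all genes): Ccl3, Ccl4, Ccl6, Ccl9, Cxcl2 and Cxcr4. Between the Ad-GFP arrays it was 2 of the 49 (4.08%, against 0.542%), Csf3 and Cxcl2. Replicate 2 was the higher Ad-GFP array for 35 of the 49 genes and the higher Ad-atrogin-1 array for 17. Over all genes the shares were 49% and 48.9%. For all 7 genes at least 2-fold lower with Ad-atrogin-1, replicate 2 was the higher Ad-GFP array and the lower Ad-atrogin-1 array, so these 2 arrays gave the widest contrast and the replicate 1 arrays the narrowest. All 10 fibroblast markers were likewise higher on Ad-GFP replicate 2 than on replicate 1, with means of 9.79 and 9.40, while their Ad-atrogin-1 means were 9.75 and 9.56 on replicates 1 and 2. Fibroblasts were not alone in this. All 8 endothelial markers were higher on Ad-GFP replicate 2 too, with means of 6.40 and 5.98 on replicates 2 and 1. So were 8 of 11 cardiomyocyte, 12 of 18 macrophage and leukocyte and 5 of 7 smooth muscle markers, but only 3 of 7 mesothelial and epithelial markers. The part of these cell types in the 7 genes was not tested.

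**Figure D4:**
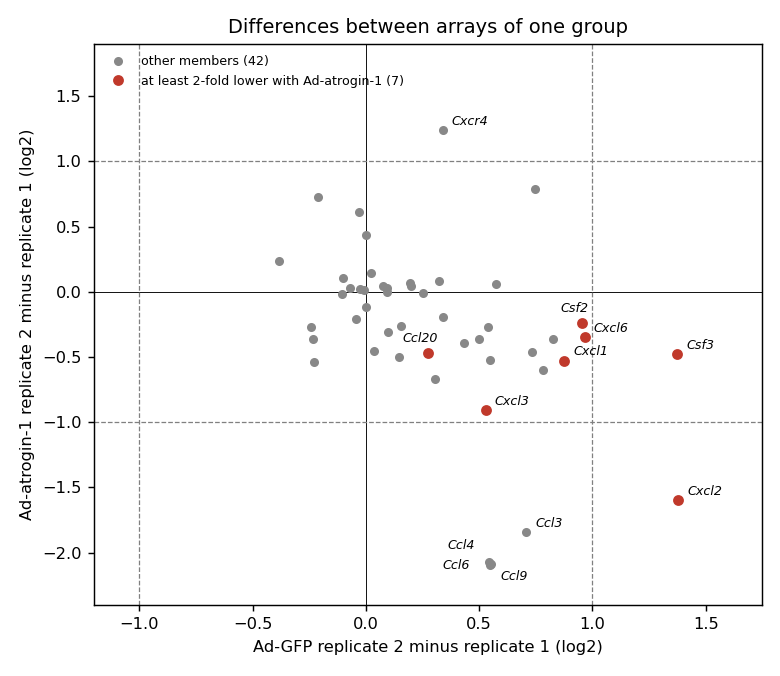
Each point is a gene, with the difference between the Ad-GFP arrays on the x axis and between the Ad-atrogin-1 arrays on the y axis (replicate 2 minus replicate 1, log2), and dashed lines at 2-fold. The 7 genes at least 2-fold lower with Ad-atrogin-1, in red, all lie in the lower right, and Ccl3, Ccl4, Ccl6 and Ccl9 lie lowest.

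The interferon-induced chemokines Cxcl9, Cxcl10 and Cxcl11, which draw activated T cells through Cxcr3, differed little between the groups. Cxcl10 had signals of 10.44 and 11.17 against 10.66 and 10.20 (-0.37, standard error 0.28, adjusted p = 0.643, limma). Cxcl11 had 8.13 and 8.91 against 8.60 and 8.01 (-0.21, standard error 0.31, adjusted p = 0.830, limma). Both overlapped between the groups, and the promoter of Cxcl10 holds a kappaB match like those of the neutrophil attractants. Cxcl9 did not overlap, with a gap of 0.18 between the nearest arrays (-0.23).

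Among the homeostatic CXC chemokines, Cxcl16, a membrane-bound ligand of Cxcr6, had signals of 9.68 and 10.25 against 9.37 and 9.43 (-0.57, standard error 0.20, 1.48-fold, adjusted p = 0.332, limma) and did not overlap. Cxcl12, the ligand of Cxcr4 and Ackr3 that retains progenitor cells, had 6.84 and 7.66 against 6.96 and 6.60 (-0.47, standard error 0.29, adjusted p = 0.558, limma), and its other 2 probe sets differed by -0.33 and -0.30. In Cxcl12 the groups overlapped, since Ad-atrogin-1 replicate 1 lay above Ad-GFP replicate 1. Cxcl13 and Cxcl14 differed by -0.12 and -0.10. Cx3cl1, which tethers monocytes to endothelium, had 9.23 and 9.37 against 9.44 and 8.95 (-0.10, adjusted p = 0.868, limma). Xcl1 had 3.46 and 3.53 against 3.42 and 3.46, under the lower quartile on all arrays.

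No receptor had an unadjusted p under 0.05 in limma, against 6.52% of all genes lower and 6.83% higher. Cxcr4, the receptor of Cxcl12, had the largest positive difference of the 49, with signals of 6.12 and 6.46 in Ad-GFP and 6.43 and 7.66 in Ad-atrogin-1 cardiomyocytes (0.75, standard error 0.40, 1.69-fold higher, adjusted p = 0.492, limma). The difference rested on Ad-atrogin-1 replicate 2, since replicate 1 lay between the Ad-GFP arrays, and the other 2 probe sets of Cxcr4 (0.61 and 0.56) had the same high array. The 8 endothelial markers measured had mean signals of 5.98 and 6.40 against 5.93 and 6.75, and all 8 were higher on Ad-atrogin-1 replicate 2 than on replicate 1. Emcn, an endothelial surface protein, had 5.74 and 6.02 against 5.48 and 8.02, and Pecam1 had 5.60 and 6.41 against 5.66 and 7.09. Their part in the Cxcr4 values was not tested. Ackr3, the other receptor of Cxcl12, was also higher on replicate 2 in both groups (0.13).

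Cxcr2, the receptor of the ELR+ chemokines, and Ccr2, that of Ccl2 and Ccl7, lay under the lower quartile on all 4 arrays, as did Ccr1, Ccr3, Ccr4, Ccr6, Cxcr3 and Csf3r. Ccr10, the receptor of Ccl27, had signals of 4.66 and 4.28 against 4.41 and 4.64. Cxcr5, the receptor of Cxcl13, had 7.35 and 7.34 against 7.29 and 7.30, while its other probe set was under the lower quartile on all arrays. Ccr3, Cxcr3, Cxcr5 and Csf3r were the 4 receptors without overlap between the groups, by gaps of 0.13, 0.085, 0.041 and 0.15, and none passed the test. They are 4 of 17, near the 22.3% of all genes that lay lower on both arrays. Csf2ra, the ligand-binding chain of the Csf2 receptor, had 5.14 and 5.18 against 5.62 and 5.17, and Csf2rb, the signaling chain, had 6.23 and 6.43 against 6.21 and 6.25. Both overlapped, with differences of 0.23 and -0.10. Cxcr1, Cx3cr1 and Csf1r differed by between -0.07 and 0.11, and overlapped too.

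Other genes of the system were taken from 3 lists, none of which held a called gene. Of 14 further chemokine and colony-stimulating factor genes, 0 had an unadjusted p under 0.05 with a lower and 1 with a higher signal (6.52% and 6.83% of all genes), and the median difference was -0.03. The 2 largest were Il34, a ligand of Csf1r, with signals of 4.64 and 4.54 against 5.62 and 5.00, and Mif, an atypical chemokine, with 9.34 and 9.67 against 10.09 and 9.76. Il34 (0.72, standard error 0.22) was the one with an unadjusted p under 0.05, and Ppbp, of the chromosome 14 cluster, differed by -0.12. Of 21 measured genes of receptor signaling, 3 were lower and 1 higher at an unadjusted p under 0.05, again beside 6.52% and 6.83% of all genes, with a median of -0.09. Grk5, a kinase that desensitizes receptors, had 7.50 and 7.49 against 6.99 and 6.71 (-0.64), and Cish, a feedback inhibitor of cytokine signaling, had 7.31 and 7.81 against 7.04 and 6.88 (-0.60).

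Of 23 measured regulators of these genes, 12 were lower and 0 higher at an unadjusted p under 0.05 (6.52% and 6.83% of all genes), and in 15 the Ad-atrogin-1 arrays lay below the Ad-GFP arrays (22.3% of all genes), with a median of -0.45. Zc3h12a, an RNase that degrades cytokine messages, had signals of 7.07 and 7.77 against 6.71 and 6.21 (-0.96, standard error 0.28). Cebpd, a transcription factor of inflammatory genes, had 9.53 and 9.65 against 8.95 and 8.73 (-0.75, standard error 0.14). Both were separate between the groups, with adjusted p of 0.244 and 0.0991 in limma. Of the NF-kappaB subunits, chosen after their values were seen, Rela had 8.77 and 8.77 against 8.44 and 8.33 (-0.38). Nfkb1 had 9.18 and 9.37 against 8.999 and 8.83 (-0.36), and Relb and Nfkb2 differed by -0.49 and -0.48. The 12 lower genes mix activators with negative regulators, among them Zc3h12a, Nfkbia (-0.42), Tnfaip3 (-0.73) and Zfp36 (-0.57). The part of these regulators in the chemokine values was not tested.

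Fbxo32, the gene of atrogin-1, had signals of 5.24 and 5.04 in Ad-GFP and 13.55 and 13.47 in Ad-atrogin-1 cardiomyocytes, or 331-fold more (limma, adjusted p = 3.51e-05), which counts viral and cellular RNA together. The markers of the labelled cell type were present, and the 11 cardiomyocyte markers had mean signals between 11.39 and 11.90 and none lay under the lower quartile. Mean signals lay between 9.40 and 9.79 for 10 fibroblast markers, between 8.29 and 8.56 for 7 smooth muscle markers and between 4.89 and 5.28 for 7 mesothelial and epithelial markers. None of the markers was called. The largest differences were 0.82 for Myh6 and 0.44 for Pln (cardiomyocyte), 0.36 for Col3a1 and -0.30 for Dcn (fibroblast), 0.98 for Rgs5 and -0.50 for Cspg4 (smooth muscle), and 3.65 for Krt19 and -0.83 for Krt18 (epithelial). Krt19 had signals of 3.20 and 5.48 against 7.89 and 8.09, so its Ad-GFP arrays were 4.86-fold apart, with replicate 1 under the lower quartile. Over all probe sets the arrays of a group correlated at r = 0.992 in both groups.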

How the data were processed

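The values are log2 signals that the authors made by RMA in GeneSpring GX from Affymetrix rat arrays, and they were used as deposited, with 1 array for each of 4 samples. The methods name more independent experiments than the 2 arrays of a group, and p-values measure only the spread between these arrays. Control probe sets (57) were dropped. Of the 31042 others, the probe set table gave 1 gene for 20826, several for 436 and none for 9780. limma (version 3.58.1, R 4.3.3) was fitted to every probe set without a block or a filter on signal and tested two-sided, with 2 residual and 3.65 prior degrees of freedom, and p was adjusted by Benjamini-Hochberg over the 14217 genes or over all probe sets. The code was tested on simulated data. Array values are given for genes that were called, differed at least 2-fold or are named by the paper, and for the 2 brightest of each role. Of the pathway lists they are given for the 2 of largest change. Of the cell type marker lists the 2 of largest change have mostly the difference alone. Others are named where chosen after their values were seen. Genes and lists were chosen with earlier results of these data known. Promoters and gene order are those of RefSeq (GRCr8). As alternatives, arrays were median-centred or quantile normalized again, and probe sets were restricted to the brightest 60%. eBayes was run with a trend or a robust prior, and a replicate block was used. An equal-variance t-test was also run, since the methods do not name their test of group means. Thresholds were varied, probe sets of a gene were averaged, and each array was left out.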

Additional observations from a re-analysis of the deposited data

How the results depend on the processing

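Ccl20 stayed called under 11 alternatives, among them median-centred arrays, a further quantile normalization and an intensity trend. Another, added after seeing the data, was eBayes on gene rows only. The 11 include a 1.5-fold threshold, no fold threshold and unadjusted p in limma, under which a called gene must stay called. The equal-variance t-test among them was taken without adjustment. Genes called lower, 1 as reported, were 0 with the equal-variance t-test after adjustment. In limma with unadjusted p and 2-fold they were 6 (Csf2, Ccl20, Csf3, Cxcl1, Cxcl3 and Cxcl6). With any array left out, 1 group had a single array, so the call is given for all 4 arrays only. The difference of Ccl20 then lay between -1.85 and -1.38. Whether arrays of the same replicate number share a cell preparation is not known. The differences of replicate 2 from replicate 1 correlated at r = 0.043 between the groups over 31042 probe sets, so the numbers were not used to pair arrays. With the replicate number as a block, 0 genes were called lower, and the adjusted p of Ccl20 was 0.177. Probe sets called lower, 0 as reported, were 1 with median-centred arrays, 1 after quantile normalization and 1 among the upper 60% by signal. With unadjusted p they were 1 in the equal-variance t-test and 7 in limma. With an array left out, 2 to 10 genes were at least 2-fold lower (7 as reported, 5 with probe sets averaged). On all Ad-atrogin-1 arrays left, 22 to 34 lay below the Ad-GFP arrays (19 as reported), a criterion that fewer arrays meet more easily. The shares of all genes were not counted for these settings. The cause of the other changes was not tested.

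Among 29 genes with array values, none of the differences turned its sign with median centring, quantile normalization or averaged probe sets; the other settings that keep all arrays leave the differences of a gene's probe set as they are. With an array left out, 16 of 116 turned, in 10 genes. The differences then ranged from -0.23 to 0.27 for Ccl19, -0.74 to 1.11 for Ccl3, -0.79 to 1.30 for Ccl4, -1.69 to 0.38 for Ccl6, -1.001 to 1.10 for Ccl9, -0.13 to 0.25 for Ccr10, -0.22 to 0.089 for Ccr6, -0.20 to 0.00065 for Csf2rb, -0.35 to 0.14 for Cx3cl1 and -0.60 to 0.18 for Cxcl11. The upper 60% by signal held 33 of the 49 genes. Signals under the lower quartile limit what can be said of 8 receptors.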
